A study of Mus musculus with 4 samples.

Results

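The 8 genes described here mark the first steps of the B lymphocyte lineage and the cutting and joining of antigen receptor gene segments, called V(D)J recombination. They were chosen by symbol, and all 8 were among the 16673 genes measured. They are the transcription factor genes Ebf1 and Pax5, the surrogate light chain genes Vpreb1, Vpreb3 and Igll1, the recombinase genes Rag1 and Rag2, and Dntt, which encodes the polymerase TdT. RNA was sequenced from lineage-negative (Lin–) bone marrow cells of mice aged 2 months, the fraction left once cells bearing mature blood lineage markers are taken out. Lin– cells of 2 mice with Cre driven by Tie2 and floxed Tet3 alleles (Tie2+/cre; Tet3F/F, labelled cKO) were compared with those of 2 mice with the floxed alleles alone (Tet3F/F, labelled control). TET3 oxidises 5-methylcytosine in DNA, and Tie2 is active in endothelium and early blood cells, so Cre is not limited to B cell precursors.

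As background, progenitors committed to the lymphoid fate first switch on Dntt and the recombinase genes. EBF1 and then PAX5 fix the B cell fate at the pro-B stage. RAG1 and RAG2 together cut DNA at immunoglobulin gene segments, TdT adds bases at the joins, and a finished heavy chain is shown on the surface of pre-B cells with the surrogate light chain of VPREB1 and λ5, the product of Igll1.

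The libraries labelled cKO held 28845037 and 30020188 reads counted to genes, and those labelled control held 39199593 and 46673855. Levels are given as normalized counts, in which the reads of a gene are scaled by the size factor of its library. Tet3, which Cre should cut, was counted at 6400 and 5084 in cKO replicates 1 and 2 and at 5056 and 6593 in control replicates 1 and 2 after this scaling. The count covers the whole gene and the labels do not name the floxed exons, so it checks neither genotype nor labels. The progenitor genes Kit and Cd34 had 8599 to 14050.5 normalized counts in all 4 libraries. Of 9 surface genes of mature lineages tested, 6 had log2 fold changes above 0 (median 0.47) and 6 were highest in cKO replicate 1. For all genes tested the shares were 50.8% and 27.6%. The natural killer cell gene Klrb1c had 625 and 454 normalized counts in cKO replicates 1 and 2 and 98.8 and 112 in control replicates 1 and 2 (DESeq2 adjusted p = 6.4e-08, limma with Benjamini-Hochberg 0.14), and the part of such cells in the values below was not tested.Xist had 87442 and 48951 normalized counts in the mice labelled cKO and 5.54 and 9.57 in those labelled control, and Ddx3y, on the Y chromosome, was at 0 in both labelled cKO and at 3158 and 3672 in both labelled control, so genotype and sex cannot be told apart in any comparison below. Control replicate 2 stood apart, with 8.16% of its reads from mitochondrial protein genes against 0.989% to 1.26% in the others. The smallest correlation of its log2 values with another library, across genes that are not independent replicates, was 0.932. All 10 immediate early genes, which respond to handling of cells, had log2 fold changes below 0 (median -1.53), and their part in the values below was not tested.

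All 8 genes were highest in the same library, cKO replicate 1, which was the highest of the 4 libraries for 27.6% of all genes tested. None passed the test between genotypes. The test was limma on log2(normalized count + 1) over 16598 genes, with p-values adjusted by Benjamini-Hochberg and called under 0.05, and it called 12 genes, 0.0723% of those tested, of which 5 were higher (0.0301%) and 7 lower (0.0422%). Of the 8, limma gave 0 with an unadjusted p under 0.05 (6.1% of all genes, 3.49% being higher), while edgeR and DESeq2 on the recovered reads each gave 2, Pax5 and Rag2 (6.13% and 7.24% of all genes), and called 0 after adjustment, against 0.0723% and 0.645% of all genes. The log2 fold changes, cKO minus control on that scale, were above 0 for 8 of 8, as for 50.8% of all genes tested, with a median of 0.81 against 0.01 over all genes. Without cKO replicate 1 they were above 0 for 5 of 8, with a median of 0.41, and without cKO replicate 2 for 8 of 8, with a median of 1.52. In 5 of the 8, namely Pax5, Vpreb3, Igll1, Rag2 and Dntt, the lower cKO value exceeded the higher control value, which held for 19.2% of all genes tested.

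**Figure D1:**
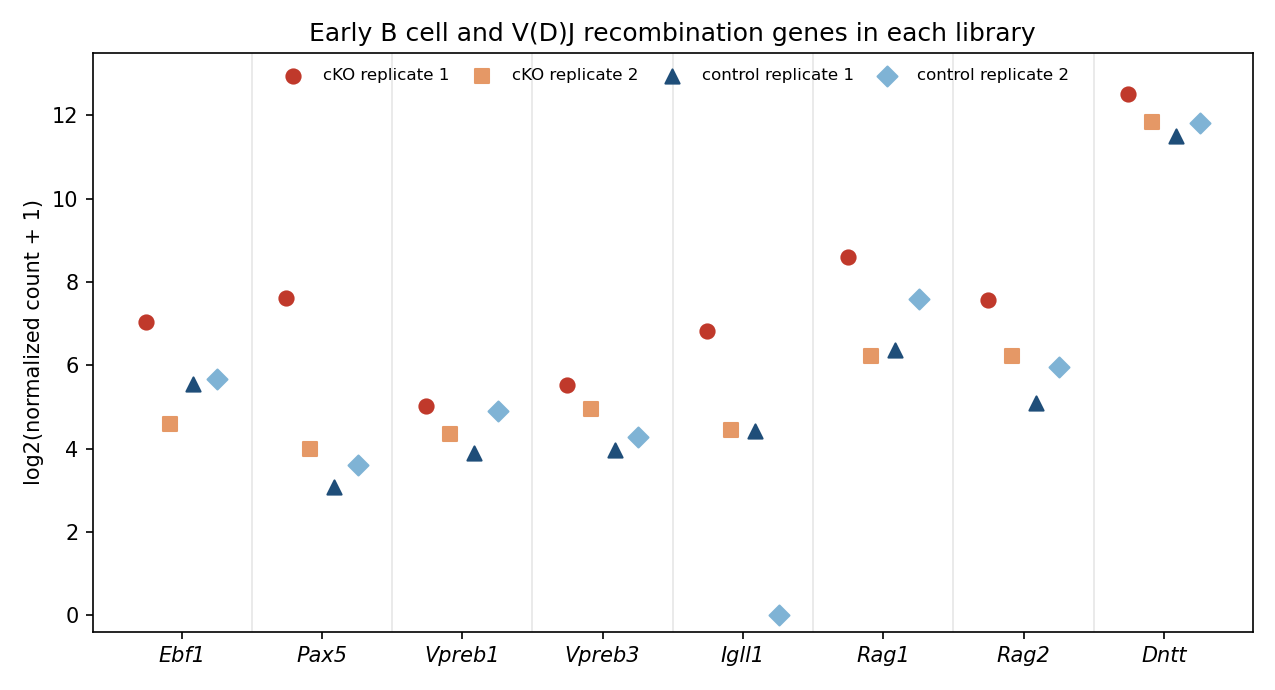
Level of each of the 8 genes in each library, as log2(normalized count + 1) on the vertical axis, with cKO replicates left of control replicates for each gene on the horizontal axis. Each point is 1 mouse. The circle of cKO replicate 1 is the highest point for all 8 genes, and Igll1 in control replicate 2 lies at 0.

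The upstream sequences of 4 of these genes are shown, chosen for the letters they hold. Whether B lineage factors or DNA methylation act on these stretches was not tested. The first 3 hold the E-box CAGGTG, a sequence that E2A proteins bind, and the last is a CpG-rich window in the gene with the largest of the 8 gaps between the mice labelled cKO. Each is the 250 bases before the RefSeq start of the gene in build GRCm38.p6, on the strand of the gene, 5′ to 3′. They are Vpreb1 (chr16:16869256-16869505, minus strand), Igll1 (chr16:16863986-16864235, minus strand), Rag1 (chr2:101649533-101649782, minus strand) and Pax5 (chr4:44710695-44710944, minus strand). Capitals mark CAGGTG or its reverse complement in the first 3 and CG in Pax5.
Vpreb1: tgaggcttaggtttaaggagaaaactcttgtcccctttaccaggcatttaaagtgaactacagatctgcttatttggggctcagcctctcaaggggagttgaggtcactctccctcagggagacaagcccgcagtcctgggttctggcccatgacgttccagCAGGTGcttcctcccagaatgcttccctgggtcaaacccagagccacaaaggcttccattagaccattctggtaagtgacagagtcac
Igll1: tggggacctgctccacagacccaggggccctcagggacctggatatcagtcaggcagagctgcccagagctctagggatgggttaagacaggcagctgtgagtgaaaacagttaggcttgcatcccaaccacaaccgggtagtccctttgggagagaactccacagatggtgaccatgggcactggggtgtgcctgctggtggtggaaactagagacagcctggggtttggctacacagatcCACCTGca
Rag1: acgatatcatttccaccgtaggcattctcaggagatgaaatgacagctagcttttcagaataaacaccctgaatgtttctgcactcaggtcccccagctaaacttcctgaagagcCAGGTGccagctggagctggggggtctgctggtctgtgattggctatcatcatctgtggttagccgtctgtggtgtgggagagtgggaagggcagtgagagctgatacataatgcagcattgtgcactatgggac
Pax5: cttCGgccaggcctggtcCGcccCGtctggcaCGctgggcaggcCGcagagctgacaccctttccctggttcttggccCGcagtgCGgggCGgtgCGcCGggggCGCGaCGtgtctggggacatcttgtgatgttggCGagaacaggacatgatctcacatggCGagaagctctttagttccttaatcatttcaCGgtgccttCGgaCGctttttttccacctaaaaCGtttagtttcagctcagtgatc

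CAGGTG, searched on both strands, began 88 bases before the start of Vpreb1, 8 bases before that of Igll1 and 135 bases before that of Rag1. It was in 17.2% of 32851 such windows of all genes and not in those of Ebf1 (with 2 start sites), Pax5, Vpreb3, Rag2 or Dntt. The Pax5 window held 19 CG pairs and the 2 Ebf1 windows 9 and 14, whereas the windows of the other 6 genes held 1 to 3. Over all windows the median was 6 and the quartiles 2 and 16. These matches describe the letters in the windows and were not linked to a measurement of binding or methylation here.

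The transcription factor genes separated the 2 mice labelled cKO from each other. Pax5, which holds cells to the B cell fate, had 194 and 14.9 normalized counts in cKO replicates 1 and 2 and 7.39 and 11.2 in control replicates 1 and 2. Replicate 1 alone was high, 13.0-fold above cKO replicate 2 and 17.4-fold above the higher control, while cKO replicate 2 lay only just above the controls. The groups did not overlap, and the log2 fold change was 2.46 (SE 1.17, 95% interval -0.27 to 5.20; limma, Benjamini-Hochberg adjusted p = 0.76). These values rest on 166 and 13 reads in the libraries labelled cKO and 8 and 14 in those labelled control. Pax5 shares 636 exonic bases with 5730488B01Rik and 125 with Gm12462, both on the other strand, in GENCODE M21 (GRCm38). The sources used here do not state whether the counting used strand, so a part of these reads is uncertain. The exact Poisson 95% interval, which covers counting error only, was 165 to 226 normalized counts in cKO replicate 1 and 7.95 to 25.5 in cKO replicate 2. Without cKO replicate 1 the log2 fold change was 0.66, and without cKO replicate 2 it was 4.27. The mean was 104 ± 126 normalized counts in cKO and 9.28 ± 2.67 in control (SD, n = 2 each), with an SD above the mean in cKO.

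Ebf1, which opens the B cell programme and acts upstream of Pax5, had 131 and 23.0 normalized counts in cKO replicates 1 and 2 and 46.2 and 50.2 in control replicates 1 and 2. The controls lay close together, with one mouse labelled cKO above both and the other below both. The log2 fold change was 0.19 (SE 0.82; limma, Benjamini-Hochberg adjusted p = 0.96). Its sign followed the mouse kept, at -1.04 without cKO replicate 1 and 1.42 without cKO replicate 2. The gap between the 2 mice labelled cKO was larger than that between the mean log2 values of the genotypes for both factors. On the log2 scale it was 3.61 for Pax5 and 2.46 for Ebf1. At least as far above cKO replicate 2 in cKO replicate 1 were 0.289% and 0.940% of all genes tested. Gaps in the other direction are not in these shares.

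The surrogate light chain genes were near the lower end of what was counted. Igll1 had 112 and 20.7 normalized counts in cKO replicates 1 and 2, and 20.3 and 0 in control replicates 1 and 2. Replicate 1 of cKO was 5.42-fold above replicate 2, which was level with control replicate 1, and the groups failed to overlap by a margin of 20.7 against 20.3. In control replicate 2, a count of 0 allows up to 2.39 normalized counts, the worth of 3 reads, as a one-sided 95% limit. The log2 fold change of 3.42 (SE 1.53; limma, Benjamini-Hochberg adjusted p = 0.76) depends on the 0, since it was 1.22 with control replicate 2 left out, against 5.63 when control replicate 1 was. With a pseudocount of 10 in place of 1 it was 1.81.

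Vpreb3, which encodes a chaperone-like protein of the pre-B cell receptor, had 45.5 and 29.9 normalized counts in cKO replicates 1 and 2 and 14.8 and 18.3 in control replicates 1 and 2. Both mice labelled cKO lay above both controls. Its log2 fold change was 1.12 (SE 0.69; limma, Benjamini-Hochberg adjusted p = 0.76), from 39 and 26 reads in cKO and 16 and 23 in control. With each library left out in turn it stayed between 0.82 and 1.41, a narrower span than for Pax5, Ebf1 or Igll1.

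Vpreb1, the variable-like chain of the surrogate light chain, had 31.5 and 19.5 normalized counts in cKO replicates 1 and 2 and 13.8 and 28.7 in control replicates 1 and 2. The groups overlapped, with a log2 fold change of 0.30 (SE 0.76; limma, Benjamini-Hochberg adjusted p = 0.93). The Poisson 95% interval was 20.8 to 45.9 normalized counts in the highest library, cKO replicate 1, and 7.75 to 22.8 in the lowest, control replicate 1. Vpreb1 has a near-identical copy, Vpreb2, which was looked up and is absent from the genes measured. Vpreb1 also shares 108 exonic bases with Top3b on the other strand in GENCODE M21 (GRCm38). The sources used here do not state whether the counting used strand, so its 15 to 36 reads are uncertain.

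Of the V(D)J recombination genes, Dntt was counted most deeply, with 3144 to 4989 reads a library. It had 5824 and 3650 normalized counts in cKO replicates 1 and 2 and 2903 and 3642 in control replicates 1 and 2. Both mice labelled cKO were above both controls, but cKO replicate 2 exceeded control replicate 2 by less than the counting error, with Poisson 95% intervals of 3524 to 3779 and 3537 to 3749. The log2 fold change was 0.50 (SE 0.26, 95% interval -0.11 to 1.11; limma, Benjamini-Hochberg adjusted p = 0.76). It was 0.17 without cKO replicate 1 and 0.84 without cKO replicate 2.

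Rag2, the recombinase partner that anchors the complex to chromatin, had 190 and 73.5 normalized counts in cKO replicates 1 and 2 and 33.2 and 61.4 in control replicates 1 and 2. The groups did not overlap, and replicate 1 of cKO was again the high one. The log2 fold change was 1.37 (SE 0.62; limma, Benjamini-Hochberg adjusted p = 0.76). It lay between 0.69 and 2.05 with each library left out in turn.

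Rag1, the catalytic subunit, had 388 and 73.5 normalized counts in cKO replicates 1 and 2 and 81.2 and 191 in control replicates 1 and 2. Both genotypes held a high and a low mouse, and cKO replicate 2 was the lowest of the 4. The log2 fold change was 0.44 (SE 0.78; limma, Benjamini-Hochberg adjusted p = 0.90) and turned to -0.76 without cKO replicate 1 and -0.18 without control replicate 1. The ratio of the 2 neighbouring recombinase genes thus differed between mice, as both had 64 reads in cKO replicate 2 while Rag1 had 240 and Rag2 77 in control replicate 2. Rag1 and Rag2 share 80 and 208 exonic bases with B230118H07Rik in GENCODE M21 (GRCm38), on the strand of Rag1 and opposite to that of Rag2, so a part of their reads is uncertain.

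**Figure D2:**
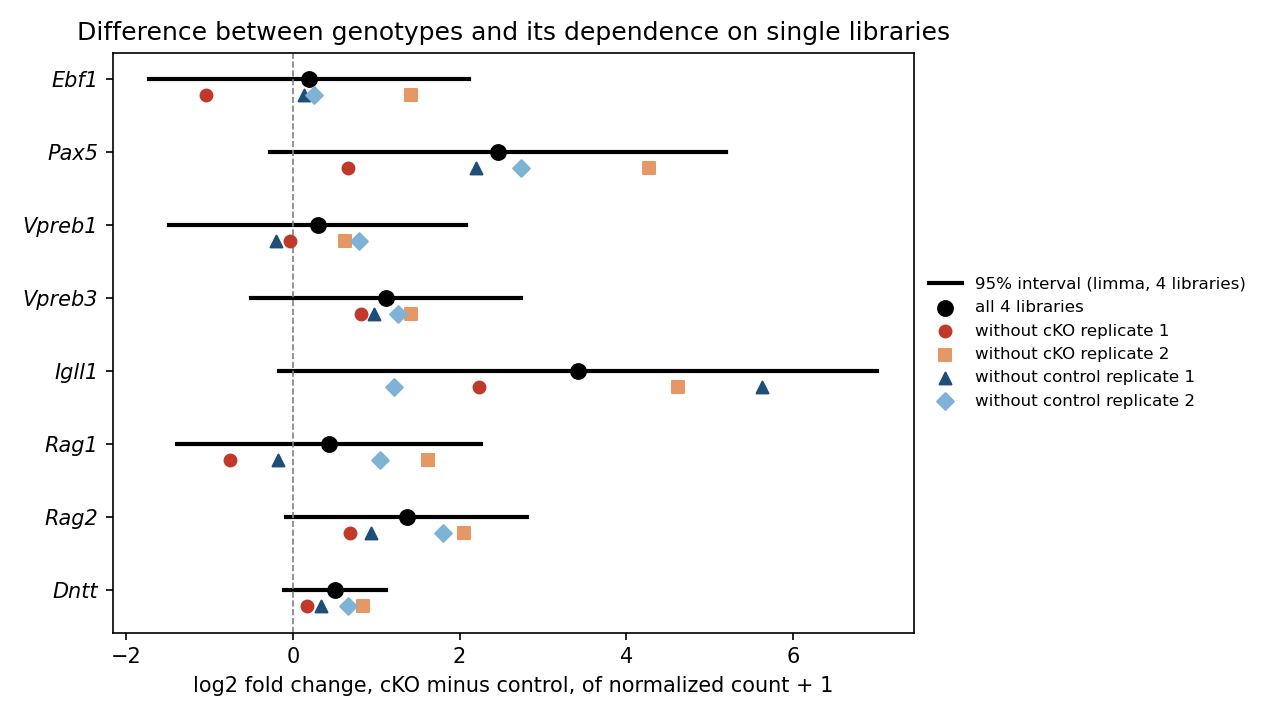
Log2 fold change of each gene, cKO minus control of log2(normalized count + 1), on the horizontal axis, with the limma estimate over all 4 libraries (black point) and its 95% interval (black line). Coloured points give the estimate with 1 library left out. All 8 intervals include 0, and leaving out cKO replicate 1 puts Ebf1, Vpreb1 and Rag1 below 0.

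Between the 2 mice labelled cKO, 5 of the 8 genes were at least 2-fold higher in replicate 1 on the log2(normalized count + 1) scale, namely Ebf1, Pax5, Igll1, Rag1 and Rag2, against 5.81% of all genes tested. The remaining 3, Vpreb1, Vpreb3 and Dntt, were 1.61-fold, 1.52-fold and 1.60-fold higher in replicate 1. Between the 2 control mice, Vpreb1 and Rag1 were at least 2-fold higher in replicate 2 (10.6% of all genes) and Igll1 in replicate 1 (8.27%). In 6 of the 8, a gap between replicates of one genotype was larger than that between the genotype means. In bulk RNA, fewer cells of a type and less RNA per cell cannot be told apart, so these levels do not say how many pro-B or pre-B cells each sample held. Beside these values, the summed level of the 7 mature B cell genes tested was 5520.5 and 5635 normalized counts in cKO replicates 1 and 2 and 6196 and 5346 in control replicates 1 and 2. Most of that sum was Cd37, which other leukocytes also carry, at 4553 and 4861 in cKO replicates 1 and 2 and 5742 and 4784 in control replicates 1 and 2. The other 6 genes summed to 968 and 774 in cKO replicates 1 and 2 and 454 and 562 in control replicates 1 and 2, again highest in cKO replicate 1. The part of these cells in the values of the 8 genes was not tested.

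Levels of different genes were compared per kilobase of annotated exon (GENCODE M21, GRCm38). Dntt had 2067 ± 671 normalized counts per kilobase in cKO and 1428 ± 228 in control (SD, n = 2 each), far above the other 7. In cKO these followed in the order Vpreb3 (43.9 ± 12.9), Rag2 (38.5 ± 24.1), Rag1 (34.9 ± 33.6), Igll1 (30.7 ± 29.9), Vpreb1 (21.3 ± 7.07), Pax5 (11.8 ± 14.3) and Ebf1 (7.88 ± 7.81). Among these 7, no neighbours differed beyond their spread. In control, Rag1, Vpreb3, Vpreb1 and Rag2 held 13.8 to 20.6 per kilobase and Ebf1, Igll1 and Pax5 1.05 to 4.94, with Pax5 the lowest at 1.05 ± 0.30. Exon lengths come from an annotation that may not be the one used for counting.

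To set the genes against B lineage content, each was compared with Cd79a and Cd79b, the signalling chains of the B cell receptor that are carried from the pro-B stage on. Cd79a had 172 and 83.9 normalized counts in cKO replicates 1 and 2 and 86.8 and 76.6 in control replicates 1 and 2, so it too was highest in cKO replicate 1. Cd79b had 709.8 and 885 in cKO replicates 1 and 2 and 925 and 727 in control replicates 1 and 2, with cKO replicate 1 the lowest of the 4. Relative to the mean log2 value of both, Pax5 was at -0.85 and -4.10 in cKO replicates 1 and 2 and at -5.09 and -4.29 in control replicates 1 and 2. On this scale cKO replicate 1 was the highest library for 7 of the 8 genes, the exception being Vpreb1, highest in control replicate 2. That count depends on the gene it is set against, since it was 4 relative to Cd79a alone (Ebf1, Pax5, Igll1 and Rag2) and 8 relative to Cd79b alone. The difference between genotypes was 2.21 for Pax5, 3.17 for Igll1, 1.12 for Rag2 and 0.87 for Vpreb3, each with an exact two-sided permutation p = 0.33, the smallest that 2 against 2 allows. For Ebf1 it was -0.06, for Vpreb1 0.05, for Rag1 0.18 and for Dntt 0.25, with an exact permutation p of 0.67 to 1. Relative to Cd79a alone the differences of Vpreb1 (-0.25), Rag1 (-0.12) and Dntt (-0.05) were below 0, and relative to Cd79b alone that of Ebf1 was above 0 (0.24).

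**Figure D3:**
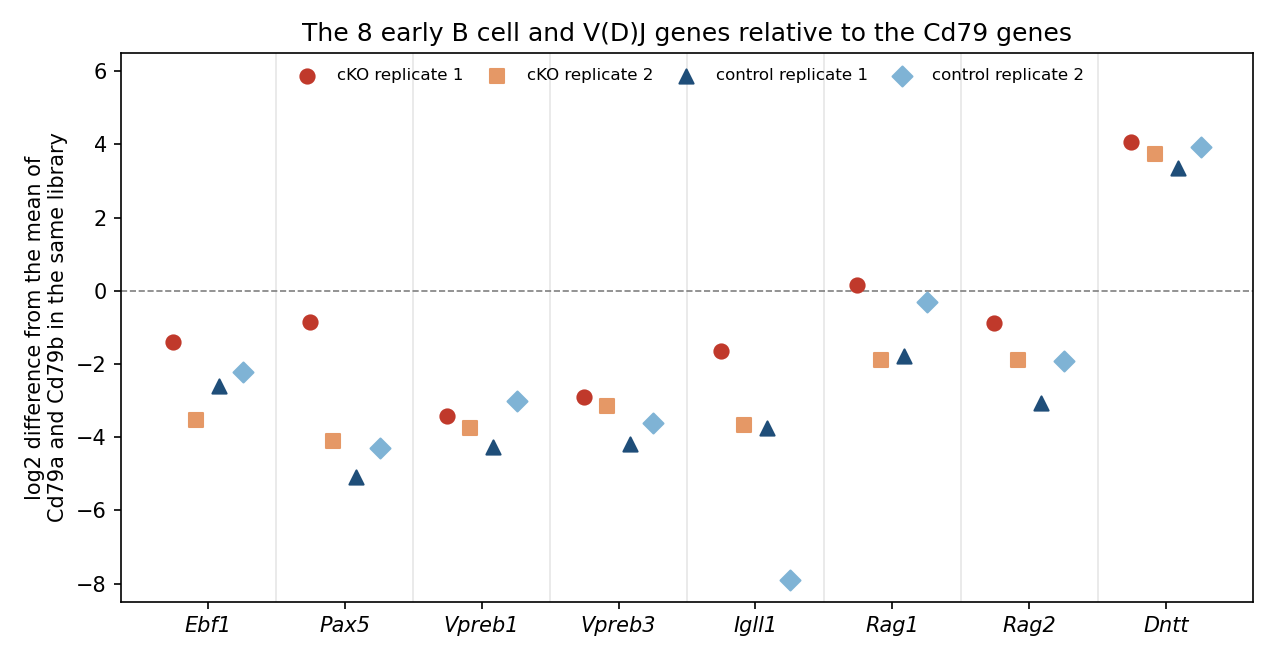
Level of each of the 8 genes relative to the mean of Cd79a and Cd79b in the same library, as a difference of log2(normalized count + 1) values on the vertical axis, with cKO replicates left of control replicates. Each point is 1 mouse. Pax5 in cKO replicate 1 lies at -0.85 while the other 3 libraries lie between -5.09 and -4.10.

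Other genes of the B cell programme were described from lists chosen with earlier results of these data known. With all 4 libraries, no member of any list passed limma after adjustment. Of 19 transcription factor genes of the B lineage, 15 had a log2 fold change above 0 (median 0.17). An unadjusted limma p under 0.05 was found for 5, and DESeq2 called 2. Over all genes tested these shares were 50.8%, 6.1% and 0.645%. Ikzf3 (Aiolos, a factor of late B cell precursors that T and natural killer cells also carry) had 799.6 and 385 normalized counts in cKO replicates 1 and 2 and 148 and 93.3 in control replicates 1 and 2. Both mice labelled cKO were above both controls, with a log2 fold change of 2.23 (SE 0.44; limma, Benjamini-Hochberg adjusted p = 0.43) that was 1.70 without cKO replicate 1. DESeq2 called it higher (adjusted p = 0.00036), as it did 0.428% of all genes, and limma did so without control replicate 1 (Benjamini-Hochberg adjusted p = 0.039), where 1.4% of all genes were called higher. Without any other library limma did not call it, with Benjamini-Hochberg adjusted p of 0.14 to 0.9998.

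Lef1, a factor of pro-B and T cells, had 202 and 180 normalized counts in cKO replicates 1 and 2 and 40.6 and 63.0 in control replicates 1 and 2. Its 2 mice labelled cKO were close to each other, and its log2 fold change was 1.89 (SE 0.44; limma, Benjamini-Hochberg adjusted p = 0.66; DESeq2 adjusted p = 0.026). Irf4 (log2 fold change 1.25, SE 0.36), Bach2 (1.01, SE 0.34) and Id2, an inhibitor of E proteins that favours innate lymphoid fates (0.69, SE 0.20), also had both mice labelled cKO above both controls. This held for 6 of the 19 factor genes, against 19.2% of all genes tested. In 1 of the 19 both were below both controls, against 19.5% of all genes tested. Tcf3, which encodes the E2A proteins, had 7119 and 6602 normalized counts in cKO replicates 1 and 2 and 7217 and 8944 in control replicates 1 and 2. Foxo1, an activator of the Rag genes, had 803 and 593 in cKO and 590 and 643 in control. Between cKO replicates 1 and 2 the fold was 1.08 for Tcf3 and 1.35 for Foxo1, against 5.69 for Ebf1 and 5.27 for Rag1.

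Of 18 other pro-B and pre-B genes, 12 had a log2 fold change above 0 (median 0.35), 4 had an unadjusted p under 0.05, and 11 were highest in cKO replicate 1. Over all genes tested these shares were 50.8%, 6.1% and 27.6%. Il7r, the receptor for the cytokine that pro-B cells need, had 1390 and 538 normalized counts in cKO replicates 1 and 2 and 480 and 495 in control replicates 1 and 2. It was high in that single mouse, and its log2 fold change of 0.83 (SE 0.42; limma, Benjamini-Hochberg adjusted p = 0.76) was 0.14 without it. Blnk, the adaptor of pre-B receptor signalling, had 667 and 350 in cKO replicates 1 and 2 and 175 and 191 in control replicates 1 and 2. Blk, a kinase of the same pathway, had 339 and 133 in cKO replicates 1 and 2 and 75.7 and 95.7 in control replicates 1 and 2. Both genes had both mice labelled cKO above both controls, with log2 fold changes of 1.40 (SE 0.37) and 1.31 (SE 0.51) that were 0.94 and 0.64 without cKO replicate 1. Bst1, a surface enzyme of pro-B and myeloid cells (log2 fold change -1.10, SE 0.39), and Ccnd3, the cyclin of dividing pre-B cells (-0.61, SE 0.20), had both mice labelled cKO below both controls. Of the 18 genes, 6 had both mice labelled cKO above both controls and 4 had both below. Over all genes tested these shares were 19.2% and 19.5%.

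Of 11 genes that EBF1 or PAX5 are known to activate, 10 had a log2 fold change above 0 (median 0.55) and 10 were highest in cKO replicate 1, as Pax5 and Ebf1 were. The shares over all genes tested were 50.8% and 27.6%. This list shares 7 genes with the pro-B list and 4 with the factor list, so it is no separate evidence. Its median was 0.37 without cKO replicate 1 and 1.03 without cKO replicate 2. Of 6 genes that PAX5 is known to repress, 5 had a log2 fold change above 0 (median 0.51), against 50.8% of all genes tested. Among the 5 were the T cell costimulator Cd28 (2.12, SE 0.47), the progenitor receptor Flt3 (0.45, SE 0.19) and Notch1 (0.62, SE 0.31). DESeq2 called Cd28 higher (adjusted p = 0.011), as it did 0.428% of all genes tested.

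**Figure D4:**
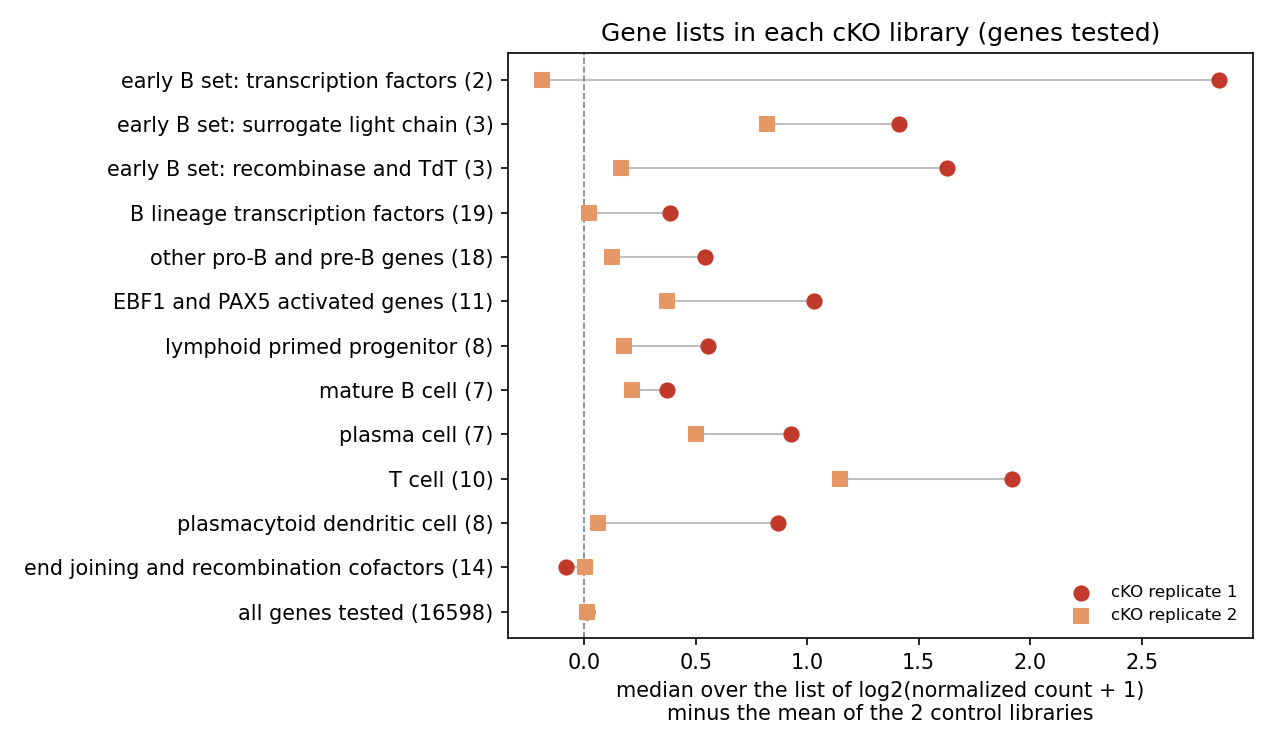
Median, over the genes tested in each list, of the difference between a cKO library and the mean of the 2 control libraries in log2(normalized count + 1), on the horizontal axis, with circles for cKO replicate 1 and squares for cKO replicate 2. The number of genes tested is in brackets. The 3 groups of early B cell and V(D)J genes have medians of 1.41 to 2.85 in cKO replicate 1 and -0.19 to 0.82 in cKO replicate 2, and both points for all genes lie at 0.01.

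The breaks made by RAG1 and RAG2 are repaired by end joining. Of 14 end joining and recombination cofactor genes, 7 had a log2 fold change above 0, against 50.8% of all genes tested, and 7 below (median -0.06). In cKO replicate 1, 5 were highest, against 27.6% of all genes tested. Xrcc6, a subunit of the Ku complex that holds broken ends, had 2997 and 3461 normalized counts in cKO replicates 1 and 2 and 3351 and 2982 in control replicates 1 and 2. Lig4, the ligase that seals them, had 186 and 225 in cKO and 188 and 167 in control. Among these genes the kinase gene Atm had the smallest p, with 3252 and 2000 in cKO and 1667 and 1308 in control (log2 fold change 0.79, SE 0.27; limma, Benjamini-Hochberg adjusted p = 0.76). These genes are active in most cells, unlike the recombinase.

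All 8 genes of the lymphoid primed progenitor list were highest in cKO replicate 1, against 27.6% of all genes tested. Their median log2 fold change of 0.38 was 0.18 without that library. All 10 T cell genes tested were also highest in cKO replicate 1, with a median of 1.50. In 9 of them both mice labelled cKO were above both controls, which held for 19.2% of all genes tested. Their summed level was 5433 and 3976 normalized counts in cKO replicates 1 and 2 and 1623 and 2739 in control replicates 1 and 2, and none was at 0 in any library. Most of that sum was Thy1 and Lck. Thy1 had 1795 and 1233 in cKO replicates 1 and 2 and 529 and 778 in control replicates 1 and 2. Lck had 926 and 836 in cKO replicates 1 and 2 and 503 and 781 in control replicates 1 and 2. Cd3g, part of the CD3 complex, had 523 and 420.5 in cKO replicates 1 and 2 and 48.9 and 140 in control replicates 1 and 2. DESeq2 called Cd3g higher (adjusted p = 0.0031), as it did 0.428% of all genes tested. The T cell sum was higher in cKO replicate 2 than in either control, as Pax5 was by a small margin and Ebf1 was not. Developing T cells use Rag1, Rag2 and Dntt as well, and the part of T cell RNA in those levels was not tested.

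Plasmacytoid dendritic cells, which can carry Dntt and Rag transcripts, had a list in which 6 of 8 genes tested were highest in cKO replicate 1. That compares with 27.6% of all genes tested. The list had a median log2 fold change of 0.53, or 0.06 without cKO replicate 1. Its summed level was 15032 and 11380.5 normalized counts in cKO replicates 1 and 2 and 10543 and 10882 in control replicates 1 and 2. Most of that sum was Runx2 and Bst2. Runx2 had 7775 and 5471 in cKO replicates 1 and 2 and 4892 and 4174 in control replicates 1 and 2. Bst2 had 3127 and 3334 in cKO replicates 1 and 2 and 3439 and 4698 in control replicates 1 and 2. Siglech had 2408 and 1389 in cKO and 1021 and 1161 in control. Of 7 mature B cell genes tested, 4 had a log2 fold change above 0 (median 0.27), against 50.8% of all genes tested. Cd22 had 524 and 364 in cKO and 184 and 235 in control. Of 7 plasma cell genes, 6 had a log2 fold change above 0 (median 0.88), against the same 50.8%. Jchain had 14444 and 17512 in cKO replicates 1 and 2 and 10558 and 5417 in control replicates 1 and 2. The part of each of these lists in the values of the 8 genes was not tested.

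Genes with the most similar pattern were sought among 12877 genes with a mean of at least 50 normalized counts, by the root-mean-square distance of the centred log2 values over the 4 libraries from the mean profile of the 8. That profile lay at 1.50 and -0.27 in cKO replicates 1 and 2 and at -0.61 and -0.62 in control replicates 1 and 2. The 8 nearest were Icos (distance 0.13), Gm19221 (0.13), Gpr174 (0.15), Gm49599 (0.15), Perp (0.16), Gm43914 (0.19), Blk (0.20) and Ifi206 (0.20). Icos, the nearest, had 376 and 132 normalized counts in cKO replicates 1 and 2 and 107 and 107 in control replicates 1 and 2. With 4 libraries such a ranking describes these mice and was not tested.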

How the data were processed

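The authors deposited a normalized signal for every gene, in which, from the values, reads are scaled by a library's size factor. Per the submitters' processing notes, the authors used STAR 2.7.9a after Trim Galore 0.6.7, with SAMtools, featureCounts and DESeq2, on build mm39. Settings and annotation: not given in the sources used here. Columns headed wild type were taken as the samples labelled control of the same number. All values (100%) were whole multiples of 1 read within 0.1 read, so reads were recovered by division. The table holds no gene with very few reads, as the smallest sum over the 4 libraries was 41.

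limma 3.58.1 (R 4.3.3, empirical Bayes with a trend, two-sided) was run on log2(value + 1) of genes with a mean of at least 10, which kept all 8 genes. The added 1 shrinks log2 ratios of low values. Igll1, at 0 in control replicate 2, nevertheless had a log2 fold change of 3.42 on this scale against 2.72 in edgeR and DESeq2. edgeR 4.0.16 (quasi-likelihood) and DESeq2 1.42.0 (Wald) were run on recovered reads, and 12 of 16598 genes passed edgeR and 107 DESeq2. Only the limma, edgeR and DESeq2 fits were tested on simulated counts. Their spread between replicates was set in advance and may differ from that of these mice. Whether the 2 mice of a group are littermates is not given, and p-values measure only the spread between these samples. Chromosomes and exon lengths came from GENCODE M21 by symbol (97.2% of genes), upstream sequences from RefSeq.

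The 8 genes and all lists were chosen with earlier results of these data known. Named were the 8 genes, Tet3, up to 4 genes per list with the smallest p and those past the threshold, and the 8 nearest profiles. Tcf3, Foxo1, Xrcc6, Lig4, Cd79a, Cd79b, Xist and Ddx3y were named outside that rule, with their values known. Alternatives changed the pseudocount, the filter, the scaling or the variance model, blocked on the replicate number, or left out a library or all X and Y genes.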

Additional observations from a re-analysis of the deposited data

How the results depend on the processing

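None of the 8 genes was called under any alternative run. The smallest adjusted p among them, 0.058 in limma with Benjamini-Hochberg adjustment, was that of Igll1 without control replicate 1. With a library left out, its group has 1 mouse, assumed to vary like the other group. The log2 fold changes above 0 then numbered 5 to 8 of 8, and the mean of at least 50 left 5 genes, all above 0. Ebf1 (-1.04), Vpreb1 (-0.03) and Rag1 (-0.76) reversed without cKO replicate 1, and Vpreb1 (-0.20) and Rag1 (-0.18) without control replicate 1. Their highest values, with another library left out, were 1.42 for Ebf1, 0.80 for Vpreb1 and 1.63 for Rag1. Tet3 reversed with quantile normalization (0.020), without cKO replicate 2 (0.15) and without control replicate 2 (0.17), and was -0.21 without control replicate 1. The count of log2 fold changes above 0 was tried under these alternatives after seeing the data. Over all genes, the number higher in cKO was 5, and it was 2 with a mean of at least 50, with quantile normalization and without a variance trend. It was 71 with DESeq2, and 36 were lower against 7. Without X and Y genes 1 was higher and 1 lower. With each library left out, 4 to 231 were higher and 8 to 161 lower, the most without control replicate 1. Over genes, the deviations of same-numbered libraries had a correlation of -0.07. With 2 mice per group this cannot tell whether equal numbers mark a shared litter or batch. With the replicate block 3 genes were higher. The cause was not tested. Relative to Cd79a alone, chosen after seeing the data, 4 genes were highest in cKO replicate 1. At 8 to 36 reads, Pax5 in 3 libraries and Vpreb1 are limited by depth.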

Other observations

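Genes of red cell precursors, which are not part of the lymphoid programme, also separated the mice labelled cKO, though not every one did. Over 8 such genes listed, the median log2 difference between cKO replicates 1 and 2 was 3.75. Alas2, the first enzyme of heme synthesis in red cells, had 776 and 33.3 normalized counts in cKO replicates 1 and 2 and 489 and 1550 in control replicates 1 and 2. Slc4a1, the anion exchanger of the red cell membrane, had 6266 and 335 in cKO replicates 1 and 2 and 3526 and 10874 in control replicates 1 and 2. Both were lowest in cKO replicate 2, and both were highest in control replicate 2, unlike Pax5 or Il7r. Klf1, from the same list, was 1.19-fold higher in cKO replicate 1 than in cKO replicate 2, at 1728 and 1453. Its lowest library was control replicate 1, at 1097. These genes were named after their values were seen.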
